A study of Homo sapiens with 18 samples.

Results

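The 32 genes described here encode enzymes of cholesterol synthesis and proteins of sterol uptake, transport, storage, efflux and sterol sensing. They were picked by gene symbol, with the probe set of highest mean signal standing for each gene, and make up 32 of the 19178 genes named on the arrays. The list was chosen with earlier results of these data known, so counts set against shares of all genes are descriptions and not tests. LNCaP cells, an androgen-responsive prostate carcinoma line derived from a lymph node metastasis, were treated for 16 h in 6 groups of 3 samples, and total RNA was hybridised to single-colour arrays. One group received the DMSO vehicle, a second 100 nM of the androgen dihydrotestosterone (DHT), and 2 groups enzalutamide, an androgen receptor antagonist, at 1 or 10 µM. The last 2 groups received 100 nM DHT with enzalutamide at 1 or 10 µM. Cells of all 6 groups were kept in RPMI medium with 5% serum from which hormones had been removed, so the vehicle group is a low-androgen state, and all results come from 1 cell line. The labels do not say whether the 3 samples of a group came from separate cultures, and the p-values then reflect no more than the spread among these arrays, part or all of which can be technical.

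Cells build cholesterol from acetyl-CoA by way of mevalonate, isoprenoids, squalene and lanosterol. Transcription of most of the enzymes is driven by the sterol regulatory element binding proteins (SREBPs), membrane-bound precursors that SCAP carries from the endoplasmic reticulum to the Golgi, where proteases release the active factor. When sterols are plentiful, INSIG1 and INSIG2 hold SCAP in the endoplasmic reticulum. Oxysterols act through liver X receptors, which induce the efflux pumps ABCA1 and ABCG1 and the ubiquitin ligase MYLIP. Prostate cells synthesise much lipid, and androgen stimulation of lipogenic genes in LNCaP cells is a long-known response.

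Signals are given as deposited, on the log2 scale, so 1 unit is 2-fold. A gene was tested when the mean of its probe set over the 18 arrays reached 6.98, the median of all 54613 probe sets, which left 12756 genes, among them 30 of the 32. ABCA1, with a mean of 6.87, and MVD, with 5.64, fell below that limit. Changes are differences of group means with their standard errors from 1 limma fit over all 18 arrays, adjusted by the Benjamini-Hochberg method over the 12756 genes. A gene was called, or said to rise or fall, at an adjusted p under 0.05. The spread is measured over 3 arrays a group, so the number of arrays limits the precision of each value.

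Array medians lay between 6.87 and 7.18. Correlations across probe sets were 0.924 to 0.962 within groups and 0.912 to 0.958 between groups. The ratio of 3′ to 5′ ACTB signal, a measure of RNA integrity and labelling, was 4.5 on replicate 2 of the DHT group and 6.04 on replicate 2 of the group on 1 µM enzalutamide alone, against 1.42 to 1.80 on the other arrays. These 2 arrays are called the high-ratio arrays, and counts are also given without them. Shares of all genes called are given for the main fit only, so changes in such counts cannot be read as particular to these genes. The 6 luminal prostate markers were all above the limit, with means between 11.78 and 14.62. Of the markers of other cell types, 2 of 3 basal, 2 of 4 fibroblast, 1 of 3 leukocyte and 1 of 2 endothelial genes were above it, the highest at 10.24 (COL1A1). Summed fibroblast signal was lower with DHT, at 1243 to 1557 against 2059 to 2386 with vehicle on the linear scale, and COL1A1 fell by 0.78 ± 0.13. DCN, the other fibroblast gene above the limit, had means of 8.25 with vehicle and 8.14 with DHT. The sum was also below vehicle with enzalutamide alone, at 1734 to 1979 with 1 µM and 1760 to 1819 with 10 µM. All samples are of 1 cell line, and the part of these markers in the results was not tested. In bulk RNA, fewer cells of a type and less RNA per cell cannot be told apart.

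With DHT, most of the pathway rose. The call was higher for 18 of the 30 tested genes and lower for 3, against 7.8% and 8.32% of all 12756 genes, and the median change was 0.47 against -0.03 over all genes. Because the genes were chosen with earlier results of these data known, this excess is a description and not a test. The largest rise was that of INSIG1 (2.76-fold) and the largest fall that of ABCG1 (2.53-fold), and of the 30 only these 2 genes passed 2-fold. Changes of this size were small beside those of the androgen reference genes FKBP5 (4.32 ± 0.16), TMPRSS2 (4.62 ± 0.25) and KLK3 (4.05 ± 0.23). Without the high-ratio arrays the counts were 15 higher and 4 lower, of which 18 genes were also called with all arrays. The share of all genes called without these arrays is not given. Of all calls with DHT, 48.4% were higher, or 64.6% with each array centred on its median, where the median of the 30 genes was 0.57.

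**Figure D1:**
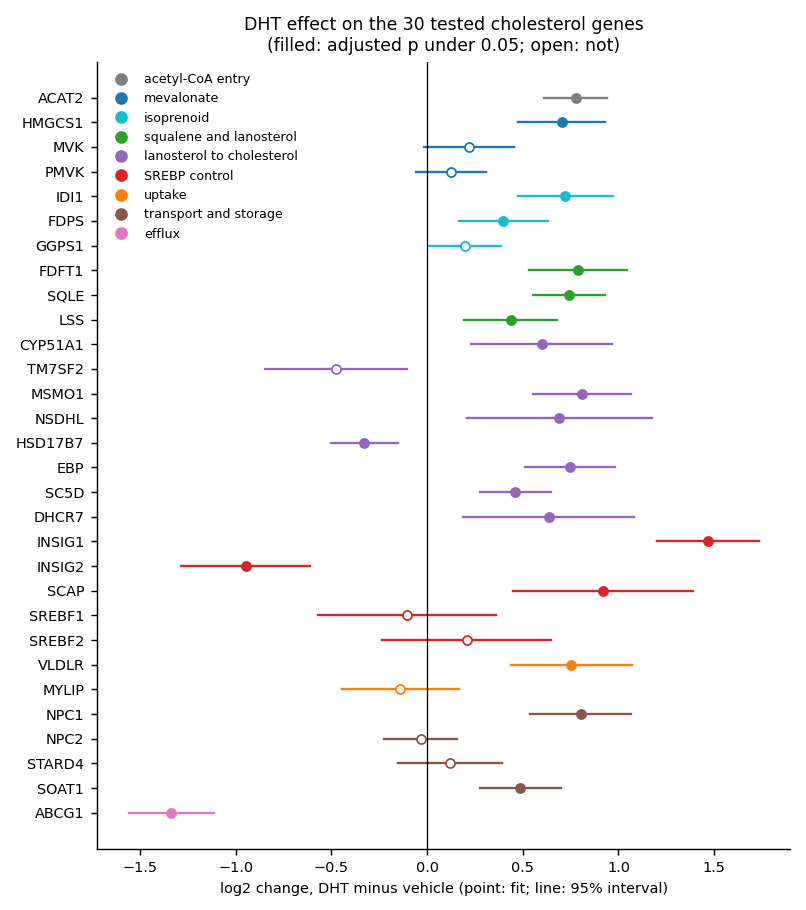
Change with DHT for each of the 30 tested genes, as the log2 difference between the means of 3 DHT and 3 vehicle arrays (points) with the 95% interval of the fit (lines), coloured by role. INSIG1 at 1.47 and ABCG1 at -1.34 lie farthest from 0, and 23 of the 30 points lie above 0.

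Among the genes of SREBP control, the INSIG genes moved apart. INSIG1, itself a target of SREBPs whose product retains SCAP, had signals of 11.07, 11.30 and 11.23 with vehicle and 12.56, 12.68 and 12.76 with DHT. The groups were more than 1 unit apart, and the change was 1.47 ± 0.13 (adjusted p = 8.3e-08). INSIG2, the paralogue with the same retention role, stood at 10.09, 10.34 and 10.35 with vehicle and at 9.30, 9.32 and 9.32 with DHT. The 3 DHT arrays agreed closely and all lay below the vehicle arrays, a fall of 0.95 ± 0.16 on the log2 scale (adjusted p = 0.00029). SCAP, the escort of the SREBPs, was at 9.90, 10.13 and 9.65 with vehicle and at 11.31, 10.69 and 10.44 with DHT. Its DHT arrays were widely spread but did not overlap the vehicle arrays, and the rise was 0.92 ± 0.22 (adjusted p = 0.0073). SREBF1 and SREBF2, which encode the SREBPs themselves, did not pass the test. Their changes were -0.11 ± 0.22 (95% interval -0.57 to 0.36) and 0.21 ± 0.21 (95% interval -0.23 to 0.65), and their groups overlapped, from 9.79 to 10.76 with DHT against 10.15 to 10.64 with vehicle for SREBF1.

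The upstream sequences of the genes were searched for motifs of the factors that act in sterol and androgen control. RefSeq (GRCh38.p14) gave a promoter window, 250 bases before to 50 after the start, for 28 of the 32 genes (none is listed for ABCG1, ACAT2, FDFT1 or SQLE), 37 windows in all. CCAAT, the pentamer bound by NF-Y, a factor that often acts beside SREBPs, was found on either strand in 20 of the 28 genes (71.4%), against 39.7% of all 27305 genes in the table. By DHT call, 11 of 15 genes that rose, 1 of 2 that fell and 7 of 9 that were not called held it. The sterol regulatory element form TCACNCCAC was found in SREBF2 alone (3.57% of the 28, against 1.39% of all genes). The androgen response element palindrome, searched as AGAACA followed after a gap of 3 bases by TGTTC, was in none of the 28 and in 0.0146% of all genes. AGAACA on its own was in PMVK alone (3.57%, against 17.5% of all genes). Both strands were searched for each motif, and the palindrome contains AGAACA. Such matches describe letters in these windows and not binding. The most CCAAT matches in a window, 5 each, were found for MVK, not called with DHT, and NSDHL, which rose. FDPS, EBP and MVD held 3 each. The 250 bases upstream are shown for the INSIG pair, whose changes with DHT were opposite, for MSMO1 and IDI1, whose windows hold 4 and 3 CCAAT matches, and for SREBF2, with CCAAT and TCACNCCAC matches in capitals (ATTGG is CCAAT on the other strand). They lie at chr7:155297628-155297877 (INSIG1, plus strand), chr2:118088221-118088470 (INSIG2, plus strand), chr4:165327419-165327668 (MSMO1, plus strand), chr10:1048887-1049136 (IDI1, minus strand) and chr22:41832855-41833104 (SREBF2, plus strand).
INSIG1: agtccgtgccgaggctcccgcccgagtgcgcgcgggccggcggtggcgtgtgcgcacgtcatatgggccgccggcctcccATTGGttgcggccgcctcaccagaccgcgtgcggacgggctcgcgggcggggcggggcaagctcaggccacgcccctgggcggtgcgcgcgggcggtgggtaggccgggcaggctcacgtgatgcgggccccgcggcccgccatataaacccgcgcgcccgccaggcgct
INSIG2: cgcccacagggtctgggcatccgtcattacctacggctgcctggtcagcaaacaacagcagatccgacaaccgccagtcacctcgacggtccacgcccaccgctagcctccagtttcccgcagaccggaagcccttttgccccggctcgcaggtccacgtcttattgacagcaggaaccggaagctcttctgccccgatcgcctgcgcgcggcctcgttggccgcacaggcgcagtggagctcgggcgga
MSMO1: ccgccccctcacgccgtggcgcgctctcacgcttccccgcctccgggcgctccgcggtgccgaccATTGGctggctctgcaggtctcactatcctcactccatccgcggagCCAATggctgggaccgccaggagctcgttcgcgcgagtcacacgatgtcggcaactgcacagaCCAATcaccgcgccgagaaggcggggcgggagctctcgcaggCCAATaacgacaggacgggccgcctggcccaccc
IDI1: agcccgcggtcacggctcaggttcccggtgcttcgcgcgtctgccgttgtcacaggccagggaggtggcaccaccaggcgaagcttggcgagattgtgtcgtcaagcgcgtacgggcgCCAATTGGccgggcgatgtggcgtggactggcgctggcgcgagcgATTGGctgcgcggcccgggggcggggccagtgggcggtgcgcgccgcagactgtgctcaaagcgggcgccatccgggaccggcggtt
SREBF2: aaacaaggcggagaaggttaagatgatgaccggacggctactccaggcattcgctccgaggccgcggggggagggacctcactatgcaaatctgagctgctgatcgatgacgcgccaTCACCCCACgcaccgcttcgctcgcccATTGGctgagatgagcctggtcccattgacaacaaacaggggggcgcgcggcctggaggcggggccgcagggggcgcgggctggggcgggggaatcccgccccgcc
IDI1 has 3 windows in the table, with 3, 2 and 0 CCAAT matches, and the one with 3 is shown. INSIG1 held 1 CCAAT match, on the opposite strand with its first base at -170 from the start, and neither of the 2 INSIG2 windows held any. In MSMO1 the 4 matches began at -185, -139, -76 and -34. In IDI1 a pair of matches on opposite strands overlapped, beginning at -132 and -129, and the last began at -87. SREBF2 had the TCACNCCAC match at -133 and a CCAAT match at -106.

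Of the 19 synthesis enzymes, 18 were tested, 13 rose with DHT, 1 fell, and their median change was 0.62, with none past 2-fold. Rises were found from the entry of the pathway to its last steps. ACAT2, the cytosolic thiolase that joins 2 acetyl-CoA units, was at 10.81, 10.81 and 10.76 with vehicle and 11.55, 11.56 and 11.60 with DHT. The replicates of each group lay close together, and the rise was 0.78 ± 0.08 (adjusted p = 6.1e-07). HMGCS1, which makes HMG-CoA, rose from 10.35, 10.28 and 10.38 to 10.90, 11.13 and 11.08, a change of 0.70 ± 0.11. The kinases MVK (0.22 ± 0.11) and PMVK (0.12 ± 0.09), which phosphorylate mevalonate, were not called. On the isoprenoid steps, the isomerase IDI1 rose by 0.72 ± 0.12 and farnesyl diphosphate synthase FDPS by 0.40 ± 0.11 (adjusted p = 0.017). GGPS1, which leads away from sterols to geranylgeranyl diphosphate, was not called, at 0.20 ± 0.09 (adjusted p = 0.16). The FDPS call rested in part on replicate 2 of the DHT group, at 11.78 against 11.39 and 11.38 on the other DHT arrays, and was lost without the high-ratio arrays (0.26, adjusted p = 0.070).

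The 3 tested enzymes from farnesyl diphosphate to lanosterol all rose. FDFT1, squalene synthase, was at 12.65, 12.72 and 12.61 with vehicle and 13.29, 13.61 and 13.45 with DHT, a change of 0.79 ± 0.12. SQLE, squalene epoxidase, went from 10.08, 10.11 and 10.24 to 10.83, 10.95 and 10.87, a change of 0.74 ± 0.09. LSS, which closes the rings to give lanosterol, rose by 0.44 ± 0.12 (adjusted p = 0.013). No DHT array of these 3 genes lay below a vehicle array.

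The 8 enzymes from lanosterol to cholesterol were mixed. MSMO1, the C4-methyl oxidase, had signals of 11.72, 11.65 and 11.74 with vehicle and 12.35, 12.75 and 12.44 with DHT, a rise of 0.81 ± 0.12 (adjusted p = 9.01e-05). EBP, the sterol isomerase, rose by 0.74 ± 0.11 and SC5D, the C5 desaturase, by 0.46 ± 0.09. CYP51A1, the lanosterol demethylase, rose by 0.60 ± 0.18 (adjusted p = 0.025), with DHT arrays at 11.75, 12.28 and 11.56 against 11.29, 11.08 and 11.42 with vehicle. The highest of these was again replicate 2, and without the high-ratio arrays the change was 0.39 (adjusted p = 0.11). NSDHL (0.69 ± 0.23), which removes the C4 carboxyl group, and DHCR7 (0.64 ± 0.21), which catalyses a final reduction, were both at an adjusted p of 0.048. Both calls were lost under 8 of the 15 alternatives. HSD17B7, the 3-keto reductase, fell by 0.33 ± 0.08 (adjusted p = 0.010). The sterol reductase TM7SF2 was at -0.47 ± 0.18 and was not called (adjusted p = 0.078), although its DHT arrays, at 11.61, 11.09 and 11.28, all lay below the vehicle arrays. It was called lower without the high-ratio arrays (-0.36, adjusted p = 0.032).

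Genes of uptake and intracellular transport also rose in part. VLDLR, a receptor that takes up lipoproteins, was at 8.88, 9.02 and 9.24 with vehicle and 9.83, 9.92 and 9.66 with DHT, a change of 0.75 ± 0.15 (adjusted p = 0.0014). MYLIP, which marks lipoprotein receptors for degradation, was at -0.14 ± 0.14 and was not called. NPC1, which moves cholesterol out of lysosomes, was at 9.28, 9.44 and 9.19 with vehicle and at 10.25, 9.98 and 10.08 with DHT. The rise of 0.80 ± 0.13 was not shared by its soluble partner NPC2, at -0.03 ± 0.09 (95% interval -0.22 to 0.16). SOAT1, which esterifies cholesterol for storage, rose by 0.49 ± 0.10, and the transfer protein STARD4 was at 0.12 ± 0.13.

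The efflux pump ABCG1 fell with DHT. It stood at 9.90, 9.95 and 9.86 with vehicle and 8.72, 8.5 and 8.49 with DHT, a change of -1.34 ± 0.11 (adjusted p = 2.5e-08). ABCA1, which exports cholesterol to lipid-poor apolipoprotein, was at 7.05, 7.50 and 7.28 with vehicle and 5.96, 6.27 and 6.50 with DHT. All vehicle arrays lay above the brightness limit and all DHT arrays below it, and in a fit of all 19178 genes without that limit the change was -1.03 ± 0.24 (adjusted p = 0.0088). MVD, the mevalonate diphosphate decarboxylase, varied from 3.78 to 6.69 among the DHT arrays alone and gave -0.05 ± 0.70 in the same fit, so its change could not be measured here.

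**Figure D2:**
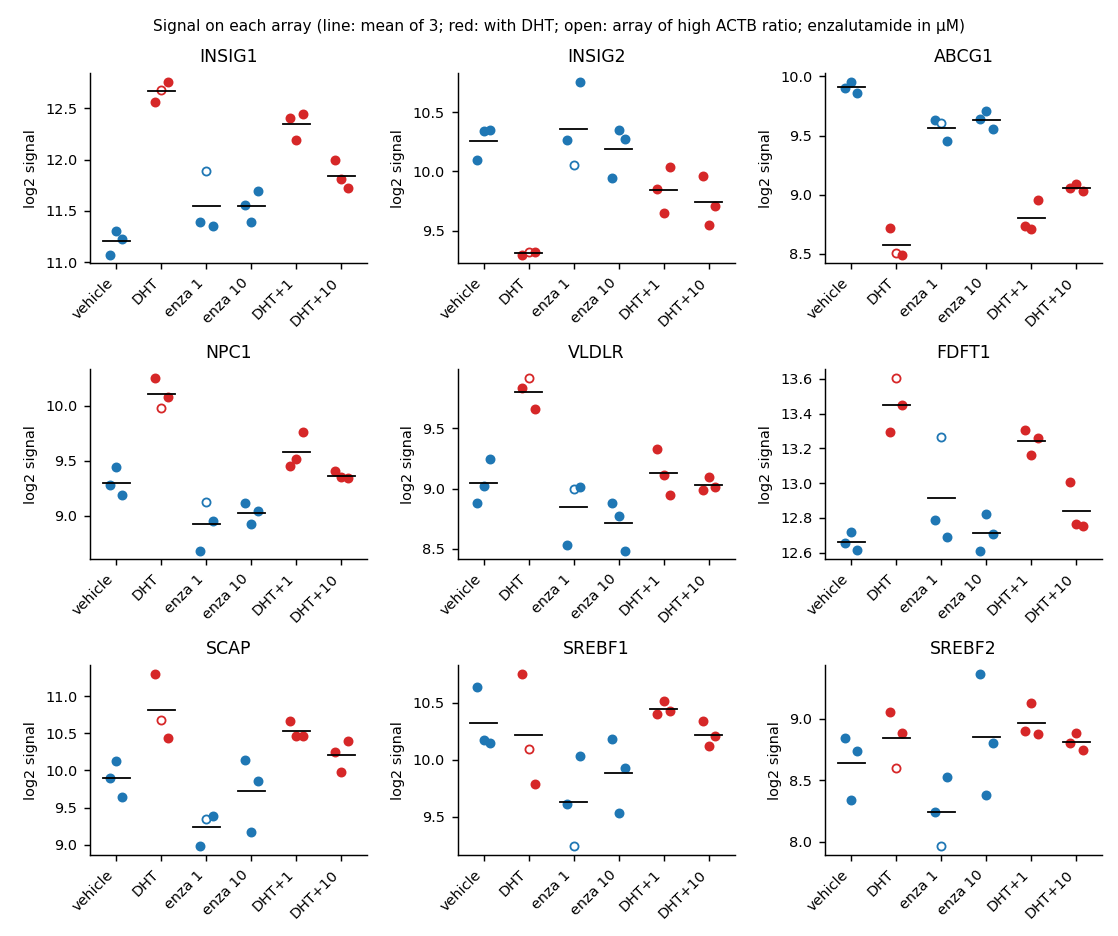
Log2 signal on each of the 18 arrays for 9 genes, by group (points; lines are means of 3; red points are with DHT, open points the 2 high-ratio arrays, doses in µM). INSIG1 and ABCG1 separate vehicle from DHT by more than 1 unit, and both lie between these levels with DHT plus 10 µM enzalutamide.

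The 32 genes were covered by 80 probe sets, and 21 genes had more than 1. Their changes with DHT did not always match that of the brightest set. INSIG1 gave 1.47, 1.44 and 0.62, and FDFT1 gave rises between 0.30 and 0.95 on all 6 of its sets. HMGCS1 gave 0.70 ± 0.11 on its brightest set and 0.15 ± 0.40 on the other, and CYP51A1 gave 0.60 ± 0.18 and 0.06 ± 0.23. IDI1 gave 0.72, 1.02, -0.03, 1.01 and -0.46 in order of brightness. MYLIP differed in the other way, with -0.14 on its brightest set and -0.68, -0.62 and -0.76 on the next 3. ABCA1 gave -1.03 and -2.12 on its brightest sets and 1.11 on the next, all of them below the limit. The brightest sets of IDI1 and HSD17B7, and that of the reference gene KLK3, are of the type that can match other transcripts, so the values of these genes are uncertain.

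**Figure D3:**
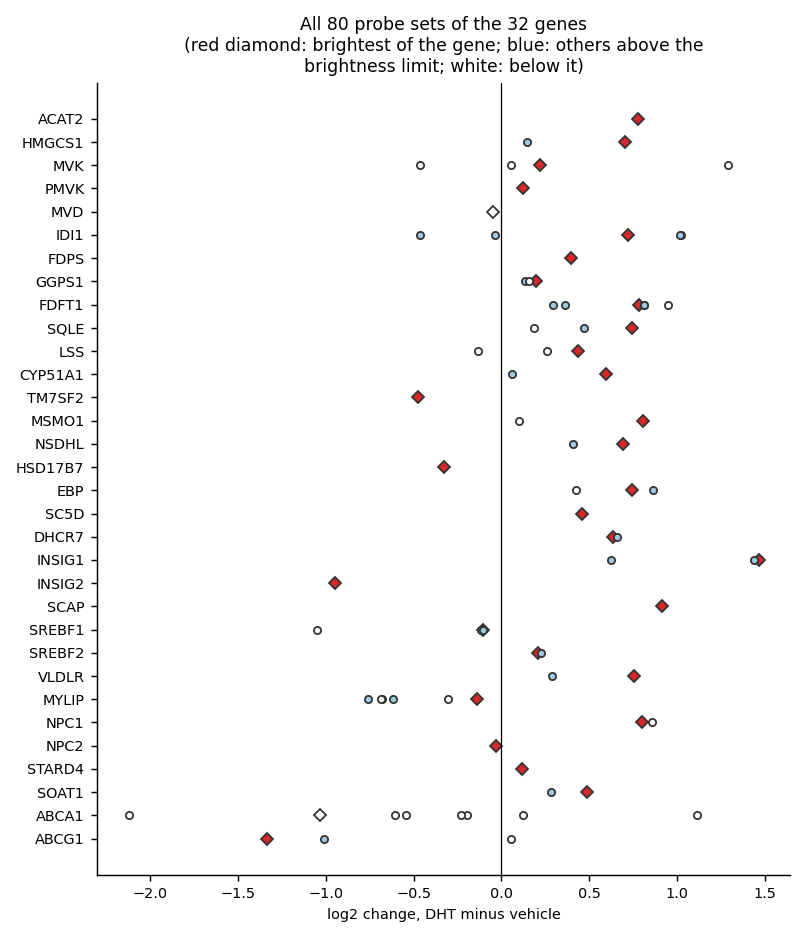
Change with DHT, as a log2 difference, on each of the 80 probe sets of the 32 genes (red diamonds are the brightest set of a gene, blue points other sets above the brightness limit, white symbols sets below it). ABCA1 ranges from -2.12 to 1.11, and all 5 of the other MYLIP sets lie below the brightest one at -0.14.

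Enzalutamide added to DHT was compared with DHT alone, which asks how far the antagonist changes the DHT state. These comparisons use the same DHT arrays as the comparison with vehicle, so the values of each are given side by side and not combined. With 10 µM, 10 of the 30 genes were lower than with DHT alone and 1 was higher, against 4.48% and 3.94% of all genes, and the median change was -0.18 against 0.04 over all genes. With 1 µM, 2 genes were lower and none higher, against 2.27% and 1.22% of all genes, with 15 of 30 at an unadjusted p under 0.05 against 15.9% of all genes. Without the high-ratio arrays the counts were 12 at 10 µM and 3 at 1 µM. With each array centred on its median they were 6 and 0. Shares of all genes called in these settings are not given, so the change in counts cannot be read as particular to these genes.

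The 2 genes lower at both doses were VLDLR and NPC1. VLDLR fell to 9.33, 9.12 and 8.95 with 1 µM and 8.98, 9.10 and 9.01 with 10 µM, changes of -0.67 ± 0.15 (adjusted p = 0.015) and -0.77 ± 0.15 (adjusted p = 0.0025). Signals with 10 µM thus lay within the range of the vehicle arrays. NPC1 was at 9.45, 9.52 and 9.76 with 1 µM and 9.41, 9.35 and 9.34 with 10 µM, changes of -0.53 ± 0.13 (adjusted p = 0.021) and -0.74 ± 0.13 (adjusted p = 0.00073). All 6 of these arrays lay below the DHT arrays. At 1 µM the calls of VLDLR and NPC1 were each lost under 5 of 15 alternatives. Their limma adjusted p there reached 0.089 for VLDLR and 0.13 for NPC1. At 10 µM both calls held under all 15.

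At 10 µM, INSIG1 was at 11.99, 11.81 and 11.72, below every DHT array and above every vehicle array, a change of -0.82 ± 0.13 (adjusted p = 0.00026). Of the synthesis enzymes past the thiolase, 6 fell: FDFT1 by 0.61, IDI1 by 0.52, MSMO1 by 0.51, HMGCS1 by 0.48, SC5D by 0.42 and FDPS by 0.36 on the log2 scale. The adjusted p ran from 0.0032 for FDFT1 to 0.049 for FDPS. The FDPS call was lost under 9 of 15 alternatives, among them without the high-ratio arrays (-0.23, adjusted p = 0.16), and HMGCS1 was at -0.07 (adjusted p = 0.85) with the mean of its probe sets. ACAT2 was at 11.29, 11.16 and 11.14, a change of -0.37 ± 0.08 (adjusted p = 0.0046). ABCG1 was the 1 gene that rose, to 9.05, 9.09 and 9.03, a change of 0.49 ± 0.11 (adjusted p = 0.0060), and it remained below all vehicle arrays. SQLE stayed at 10.84, 10.82 and 10.78, a change of -0.07 ± 0.09 (95% interval -0.26 to 0.12). INSIG2 (0.43 ± 0.16, adjusted p = 0.11) and SCAP (-0.60 ± 0.22, adjusted p = 0.11) were not called. In the same comparison FKBP5 fell by 3.57 ± 0.16 and TMPRSS2 fell by 2.33 ± 0.25, while KLK3 was at -0.23 ± 0.23 and was not called (adjusted p = 0.62).

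The 2 doses were also compared directly in the presence of DHT. No member was called between 10 and 1 µM in the limma fit, where 0.0706% of all genes were, and 5 of 30 were at an unadjusted p under 0.05 against 8.03% of all genes. The lowest adjusted p was 0.21, for INSIG1, with 12.40, 12.20 and 12.44 at 1 µM and a change of -0.50 ± 0.13 (95% interval -0.77 to -0.24). Without the high-ratio arrays, neither of which is in these groups, INSIG1 (adjusted p = 0.035) and FDFT1 (-0.40, adjusted p = 0.045) were called.

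**Figure D4:**
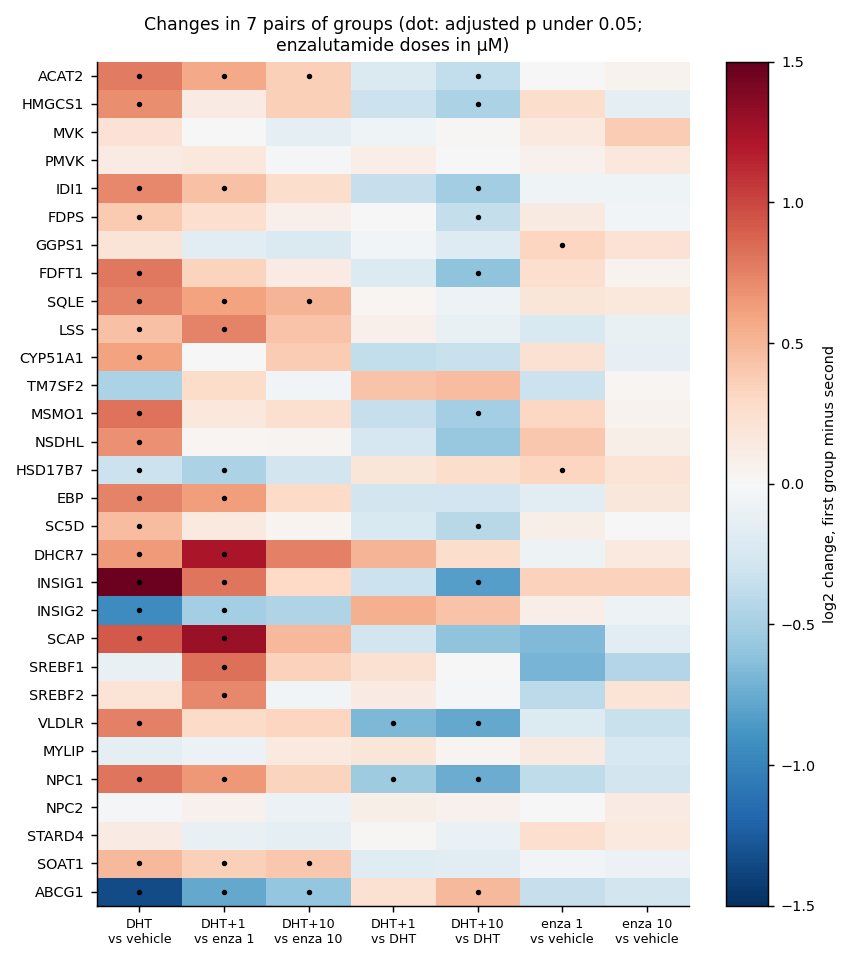
Log2 change of the 30 tested genes in 7 pairs of groups (colour; dots mark an adjusted p under 0.05; doses in µM). The first column, DHT against vehicle, holds 21 dots and the fifth, DHT with 10 µM enzalutamide against DHT, holds 11.

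The effect of DHT was then measured in cells that all had the drug, on arrays that do not enter the difference between DHT and vehicle. The p-values of both comparisons share the same estimate of the spread over all 18 arrays, so their calls are not independent. Beside 1 µM enzalutamide, 12 of the 30 genes were higher with DHT and 3 lower, against 11% and 7.86% of all genes. Beside 10 µM, 3 were higher and 1 lower, against 1.36% and 1.46%. Of the 18 genes that rose with DHT alone, 17 had a change above 0 beside 1 µM and 18 beside 10 µM, where 49.2% and 53.3% of all genes did. The 3 genes that fell with DHT alone were below 0 at both doses. These 21 genes were picked by their call with DHT alone, whereas the shares are of all genes without such a pick. The shares among all genes called with DHT alone were not counted, so these directions cannot be read as particular to this pathway.

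ACAT2, SQLE and SOAT1 were higher and ABCG1 lower with DHT at each dose. The SOAT1 call was lost under 6 of 15 alternatives beside 1 µM and under 10 beside 10 µM, and the ACAT2 call under 4 beside 10 µM. SQLE was at 10.18, 10.30 and 10.47 with 1 µM alone and 10.90, 10.97 and 10.88 with DHT added, a change of 0.60 ± 0.09 (adjusted p = 0.00015). With 10 µM it went from 10.30, 10.22 and 10.39 to 10.84, 10.82 and 10.78, a change of 0.51 ± 0.09 (adjusted p = 0.0030). ABCG1 changed by -0.77 ± 0.11 and -0.58 ± 0.11 at the 2 doses (adjusted p = 7.2e-05 and 0.0044). INSIG1 rose by 0.80 ± 0.13 beside 1 µM (adjusted p = 0.00028) and was at 0.30 ± 0.13 beside 10 µM (adjusted p = 0.25). DHCR7 rose beside 1 µM by 1.23 ± 0.21, from 8.83, 8.74 and 9.67 to 10.22, 10.24 and 10.46, and SCAP by 1.3 ± 0.22, from 8.97, 9.35 and 9.39 to 10.67, 10.46 and 10.46. For both genes the arrays with and without DHT did not overlap.

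SREBF1 and SREBF2 rose beside 1 µM by 0.82 ± 0.22 (adjusted p = 0.015) and 0.72 ± 0.21 (adjusted p = 0.022). SREBF1 stood at 9.61, 9.24 and 10.03 with 1 µM alone and at 10.40, 10.51 and 10.43 with DHT added. The lowest array, replicate 2, was a high-ratio array, and without these arrays the changes were 0.63 (adjusted p = 0.075) and 0.58 (adjusted p = 0.083). Beside 10 µM, neither was called (0.34 ± 0.22 and -0.04 ± 0.21).

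Whether the DHT effect differed with and without the drug was tested as an interaction, the DHT effect beside enzalutamide minus that beside vehicle. At 10 µM it was called for 4 genes, 3 lower and 1 higher, against 2.5% of all genes in each direction. INSIG1 had an interaction of -1.17 ± 0.18 (adjusted p = 0.00049), its DHT effect being 0.30 beside the drug and 1.47 beside vehicle. FDFT1 followed with -0.66 ± 0.17 (adjusted p = 0.031, effects of 0.13 and 0.79) and ACAT2 with -0.42 ± 0.11 (adjusted p = 0.030, effects of 0.35 and 0.78). The fall of ABCG1 was smaller beside the drug, with an interaction of 0.76 ± 0.15 (adjusted p = 0.0051, effects of -0.58 and -1.34). For SQLE it was -0.23 ± 0.13 (95% interval -0.50 to 0.03) and was not called. Without the high-ratio arrays 7 genes were called, EBP, IDI1 and SC5D being added. The share of all genes called in that setting is not given. Of the 21 alternatives, the FDFT1 call was lost under 13 and the ACAT2 call under 9, several of them leaving out 1 array. The INSIG1 call was lost under 1, the mean of its probe sets (-0.57, adjusted p = 0.057), and the ABCG1 call under 2.

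At 1 µM the interaction was called for INSIG1 (-0.66 ± 0.18), MSMO1 (-0.65 ± 0.17), HMGCS1 (-0.58 ± 0.15) and ABCG1 (0.57 ± 0.15), 3 lower and 1 higher against 2.23% and 3.6% of all genes. Adjusted p lay between 0.034 and 0.038. None was called without the high-ratio arrays, where the INSIG1 value was -0.49 (adjusted p = 0.091) and that of MSMO1 -0.41 (adjusted p = 0.13). Leaving out any 1 vehicle array also left none. Replicate 2 of the group on 1 µM alone was the highest of its group for INSIG1, at 11.89 against 11.39 and 11.35, and for FDFT1, at 13.26 against 12.79 and 12.69.

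Enzalutamide without DHT moved few of these genes past the test. At 1 µM, 2 of 30 were higher and none lower, against 2.24% and 4.59% of all genes. These were GGPS1 (0.33 ± 0.09, adjusted p = 0.036), at 11.81, 12.04 and 11.87 against 11.52, 11.68 and 11.54 with vehicle, and HSD17B7 (0.32 ± 0.08, adjusted p = 0.030), at 12.19, 12.19 and 12.15 against 11.76, 11.83 and 11.97. Neither was called with each array centred on its median, with the arrays of these 2 groups alone or without the intensity trend of the fit. SREBF1 was at -0.70 ± 0.22 (adjusted p = 0.064) and SCAP at -0.66 ± 0.22 (adjusted p = 0.080) at 1 µM. At 10 µM none was called in the limma fit, where 0.815% of all genes were, and 7 of 30 were at an unadjusted p under 0.05 against 15.3% of all genes. MVK had the lowest p of these, with a change of 0.38 ± 0.11 (adjusted p = 0.11). INSIG1 was at 11.55, 11.40 and 11.70 with 10 µM, above all 3 vehicle arrays, with a change of 0.35 ± 0.13 (adjusted p = 0.20). The median change of the 30 genes was 0.07 at 1 µM and 0.04 at 10 µM, against -0.0039 and -0.0048 over all genes. Of the 3 androgen reference genes, none was called at 1 µM, and 1 was called higher at 10 µM. KLK3 was at 11.46, 11.13 and 11.53 with 10 µM alone, against 10.01, 10.05 and 10.38 with vehicle.

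Neighbouring pathways were described from lists of genes known to act in them, with counts to be read against the 7.8% of all genes that rose with DHT and the 8.32% that fell. These lists were chosen with earlier results of these data known, so the counts describe them and are not tests. Of 13 genes of the non-sterol branches of mevalonate metabolism, 2 rose with DHT and none fell (median 0.14), among them TRIT1 (0.31 ± 0.08), a tRNA isopentenyltransferase. Of 14 genes of SREBP processing and sterol sensing, SYVN1 (0.57 ± 0.14), a ubiquitin ligase of the endoplasmic reticulum, rose and SPRING1 (-0.45 ± 0.12), a regulator of SREBP cleavage, fell (median -0.13). Of 21 tested genes of sterol transfer, storage, uptake and oxysterol metabolism, 2 rose and none fell (median 0.02), the sterol transfer protein OSBP (0.53 ± 0.13) and the mitochondrial membrane protein TSPO (0.40 ± 0.10).

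Of 12 genes of fatty acid synthesis, a route driven largely by SREBP-1, 8 rose and 1 fell with DHT, against 7.8% and 8.32% of all genes, with a median of 0.37. This list was also chosen with earlier results of these data known. FASN, fatty acid synthase, rose by 0.73 ± 0.23, the desaturase FADS1 by 0.70 ± 0.11 and acetyl-CoA carboxylase ACACA by 0.63 ± 0.12. FASN stood at 12.28, 11.37 and 11.35 with DHT, against 11.13, 10.77 and 10.91 with vehicle, so replicate 1 of the DHT group weighed heavily. The calls of these list genes were not checked under the alternatives. The gene that fell, named after its value was seen, was the acetyl-CoA synthetase ACSS2 (-0.47 ± 0.12). None of the 12 was called for 10 µM enzalutamide added to DHT (median -0.18), against 3.94% of all genes higher and 4.48% lower, and FADS1 was at -0.33 ± 0.11 and FASN at -0.48 ± 0.23. In that comparison SYVN1 fell by 0.48 ± 0.14 and TSPO fell by 0.41 ± 0.10.

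The authors' deposited table, which lists probe sets they marked as changed, holds the brightest probe sets of 19 of the 32 genes. For DHT against vehicle the authors' deposited table marks 16 of them, 13 higher and 3 lower, and 15 of the 16 were also called here. The exception was ABCA1, which lay below the brightness limit. Of the 21 genes called here, 15 were thus marked. SCAP, DHCR7 and HSD17B7 were called here but are listed without a mark for this comparison, and FDPS, CYP51A1 and NSDHL are not listed. For 10 µM enzalutamide with DHT against DHT the authors' deposited table marks 10, 9 lower and 1 higher, and all 10 were called here. For DHT with 1 µM against DHT the authors' deposited table marks 3, of which 1 was called here and INSIG2 and SC5D were not. NPC1, called lower here, is listed there without a mark. For DHT beside 1 µM the authors' deposited table marks 12, of which 11 were called here, the exception again being ABCA1. For DHT beside 10 µM the authors' deposited table marks 8, of which 3 were called here and DHCR7, HMGCS1, HSD17B7, IDI1 and NPC1 were not. It marks none for enzalutamide alone at either dose or between the doses. The authors' marks and the calls here come from the same arrays, so their overlap is not an independent check. The shares of all probe sets listed or marked by the authors are not given. These counts therefore cannot be read as particular to these genes.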

How the data were processed

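Total RNA of 18 LNCaP samples, 3 in each of 6 groups, was labelled with biotin and hybridised to single-colour arrays. The authors deposited log2 signals, made with MAS5 per the submitters' processing notes, with neither its version nor the array model stated in the labels. The deposited log2 values of every array have a 2% trimmed mean signal of 500.05 to 500.06 on the linear scale, and the 2 deposited value tables differ by 0. They were used without further normalization. The authors' deposited table of changed probe sets gives log2 ratios and marks, and the rule behind the marks is not stated in its header.

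Here 62 control probe sets of 54675 were left out, probe sets were named through accession or symbol, and the set of highest mean stood for each gene. Group means were fitted with limma 3.58.1 (R 4.3.3, eBayes with an intensity trend, 12 residual degrees of freedom, two-sided), with Benjamini-Hochberg adjustment across all 12756 genes. The fit was run on simulated data with independent noise for each gene and changes in the DHT group alone. That simulation held no array-wide effects, so it cannot show how the fit handles those of the arrays here. The labels do not say what the replicate numbers mark, and the main fit did not pair the samples by them. Deviations of arrays sharing a number had a median correlation of 0.016 (-0.175 to 0.587, 45 pairs). For arrays of different number it was -0.007 (-0.521 to 0.389, 90 pairs), and 6 of 18 arrays were closest to their own number. Such values show no strong shared effect of a number but cannot exclude pairing. Promoters were read from RefSeq with Python 3.11.15.

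The 32 genes and all lists were chosen with earlier results of these data known. All 32 genes were to be named; from each other list, at most the 3 genes of largest change with DHT among those called were named, with FKBP5, TMPRSS2 and KLK3 as references. Some genes of these lists are not reported here. Alternatives were no brightness limit, a limit 1 unit higher, centring each array on its median, quantile normalization, the mean of a gene's probe sets, a replicate block, leaving out the 2 high-ratio arrays or each array in turn, no intensity trend, and fits of the compared groups alone.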

Additional observations from a re-analysis of the deposited data

How the results depend on the processing

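Counts below are of the 30 tested genes called. Shares of all genes called under the same alternatives are not given, so changes in these counts cannot be read as particular to these genes. For DHT against vehicle the 21 calls ranged from 17 to 19 when 1 array was left out. Calls of ACAT2, IDI1, FDFT1, SQLE, MSMO1, EBP, SC5D, INSIG1, INSIG2, SCAP, VLDLR, NPC1, SOAT1 and ABCG1 held under all 15 alternatives; those of NSDHL and DHCR7 were lost under 8, FDPS under 5, CYP51A1 and HSD17B7 under 4, LSS under 3 and HMGCS1 under 1. With each array centred on its median, counts went from 2 to 0 for 1 µM enzalutamide against vehicle, 2 to 0 for DHT with 1 µM against DHT, 11 to 6 for DHT with 10 µM against DHT, 4 to 0 for DHT beside 10 µM, 4 to 0 for the interaction at 1 µM and 4 to 1 at 10 µM. Centring moved the median of all genes from -0.01 to 0.16 for DHT beside 1 µM, and from 0.01 to -0.12 between the doses. It moved the share of all calls that were higher from 32.8% to 12.9% for 1 µM alone, from 37.5% to 100% for 10 µM alone, from 46.8% to 31.2% for 10 µM added to DHT, and from 58.4% to 88.9% for DHT beside 1 µM. With the mean of a gene's probe sets above the limit, counts were 1 for 1 µM alone, 4 for 1 µM added to DHT, 1 for the interaction at 1 µM and 2 at 10 µM. Among values called in the main fit or under this mean, 2 changed sign: CYP51A1 for DHT beside 1 µM (0.31, adjusted p = 0.0305) and HMGCS1 for the interaction at 1 µM (0.24, adjusted p = 0.602). Sign changes of values called in neither were not counted. Without the high-ratio arrays, counts were 2 between the doses, 8 for DHT beside 10 µM, 0 for the interaction at 1 µM and 7 at 10 µM. Without the intensity trend they were 1 for 1 µM alone (ABCG1, lower, while GGPS1 and HSD17B7 were lost) and 1 for the interaction at 1 µM. With the compared groups alone they were 0 for 1 µM alone, 1 for 1 µM added to DHT and 0 for the interaction at 1 µM, which gave 2 without the brightness limit. The cause of these changes was not tested.

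Leaving out 1 array gave 0 to 6 calls for 1 µM alone, with 0 when vehicle replicate 1 or 2 or drug replicate 2 was left out, 1 without vehicle replicate 3 or drug replicate 1 and 6 without drug replicate 3. It gave 0 for 10 µM alone and between the doses, 0 to 2 for 1 µM added to DHT (0 without DHT replicate 1 or combination replicate 2, and 1 without DHT replicate 2 or combination replicate 1 or 3), 9 to 11 for 10 µM added to DHT, 10 to 14 for DHT beside 1 µM and 2 to 4 beside 10 µM (2 without drug replicate 3 or combination replicate 1 or 2). For the interaction it gave 0 to 10 at 1 µM, with 0 without any 1 vehicle array, DHT replicate 2 or 3 or drug replicate 2, 1 without any 1 combination array, 7 without DHT replicate 1 and 10 without drug replicate 3. At 10 µM it gave 2 to 6, with 2 without any 1 vehicle array, DHT replicate 3, drug replicate 2 or combination replicate 2 or 3. With the replicate block, for which the labels give no stated basis, counts were 22 for DHT, 3 and 0 for the drug alone at 1 and 10 µM, 2 and 11 for the drug added to DHT, 0 between the doses, 15 and 6 for DHT beside the drug, and 6 and 5 for the interactions. Over single genes, 4592 values kept their side of the threshold, 199 lost it and 67 gained it.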
